A study of Homo sapiens with 8 samples.

Results

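The 8 genes described here are 8 of the 64252 genes in each count table. KIT, CD34, HHEX, MEIS1, MSI2, GFI1, CD44 and BMI1 were taken by name, as surface and nuclear genes of hematopoietic or leukemic self-renewal, and were found by matching their Ensembl identifiers to symbols. All 8 were present in the tables of both cell lines. RNA-seq had been carried out in 2 T-cell acute lymphoblastic leukemia (T-ALL) cell lines, 6T-CEM and J.gamma1, each carrying either a control short hairpin RNA (sh-NC) or a short hairpin RNA against LDB1 (sh-LDB1). 6T-CEM derives from the CCRF-CEM line, and J.gamma1 is a Jurkat subclone that lacks phospholipase C gamma 1. Each of the 4 groups had 2 libraries, 8 libraries in all. The hairpins were delivered in a lentiviral pLKO.1 vector, also to the control cells, and infected cells were selected with puromycin. By the study's knockdown methods cells were harvested some days after selection. Which of the LDB1 hairpins the sequenced cells carried is not given in the sources used here. Each line stands for 1 leukemia. Nothing in the labels says that the 2 libraries of a group came from separate cultures, so p-values measure the spread between these libraries, which may be technical.

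LDB1 is a nuclear adaptor that binds no DNA itself. It joins LIM-domain proteins and the transcription factors attached to them, such as TAL1 and GATA factors, and by pairing with itself brings distant enhancers to promoters. Blood stem cells keep themselves by proteins of several kinds. KIT is the receptor of stem cell factor, CD34 a sialomucin on stem and progenitor cells, and CD44 a receptor of hyaluronan used in homing. HHEX, MEIS1 and GFI1 are transcription factors, the first 2 homeodomain proteins and the third a zinc-finger repressor. BMI1 is a subunit of Polycomb repressive complex 1 (PRC1), and MSI2 an RNA-binding protein that controls translation. All 8 have been tied to leukemia.

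The libraries held between 26160492 and 30604977 counts. The 10 most abundant genes took 4.83% to 5.69% of a library, and mitochondrial genes 2.98% to 4.59%. LDB1 itself was lower in every sh-LDB1 library. In 6T-CEM its level was 107 and 111 CPM (counts scaled to a common library size) under sh-NC and 37.0 and 35.0 under sh-LDB1, or 33.1% of the control level in the edgeR fit. In J.gamma1 it was 60.1 and 58.8 CPM against 33.2 and 30.7, or 54.0% of control. The depth of the knockdown therefore differed between the lines (difference in log2 fold change 0.70 ± 0.095 SE, adjusted p = 0.000237). All 8 T-lymphoblast markers looked at, the CD3 chains among them, stood above 3 counts in each library. Summed over the list, 6T-CEM had 1372 to 1423 CPM with sh-NC and 1787 to 1823 CPM with sh-LDB1; J.gamma1 had 1802 to 1847 and 2200 to 2255 CPM. In 6T-CEM 5 of these 8 markers were called higher and 1 lower, and in J.gamma1 4 higher and 2 lower. For the 12 markers of other blood lineages the sums were 28.4 to 28.5 and 41.5 to 45.0 CPM in 6T-CEM, and 66.7 to 68.7 and 76.8 to 76.9 CPM in J.gamma1, most of it from the B-cell gene CD79A. The erythroid gene ALAS2 had no count in any library. Whether these shifts have a part in the results below was not tested.

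The start regions of 3 genes are shown because their genes behaved differently: HHEX fell in both lines, GFI1 moved little, and BMI1 was called as changed in neither. Each is the 250 bases before a RefSeq transcription start in GRCh38.p14, written 5′ to 3′ on the strand of the gene, with GATA and its reverse complement TATC in capitals. The HHEX window is chr10:92689705-92689954, the GFI1 window chr1:92486926-92487175 on the minus strand, and the BMI1 window chr10:22320849-22321098. None of the 3 overlaps an annotated exon.
HHEX: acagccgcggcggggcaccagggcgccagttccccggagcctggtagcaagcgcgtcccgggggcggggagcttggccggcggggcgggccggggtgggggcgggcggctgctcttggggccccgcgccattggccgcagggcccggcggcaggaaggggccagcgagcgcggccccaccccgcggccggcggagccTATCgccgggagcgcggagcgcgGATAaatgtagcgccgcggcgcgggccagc
GFI1: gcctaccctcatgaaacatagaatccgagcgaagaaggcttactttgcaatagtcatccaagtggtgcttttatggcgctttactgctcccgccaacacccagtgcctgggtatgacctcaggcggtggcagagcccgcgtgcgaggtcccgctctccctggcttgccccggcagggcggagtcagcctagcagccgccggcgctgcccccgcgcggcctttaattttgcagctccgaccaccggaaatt
BMI1: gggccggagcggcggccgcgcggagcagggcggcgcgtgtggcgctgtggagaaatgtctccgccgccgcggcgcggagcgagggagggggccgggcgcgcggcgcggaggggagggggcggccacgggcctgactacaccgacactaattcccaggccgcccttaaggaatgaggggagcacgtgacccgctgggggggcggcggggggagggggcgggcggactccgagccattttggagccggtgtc
GATA or TATC stood 2 times in the HHEX window, at -53 and -30 counted back from the start, and in neither of the other 2 windows. There were 12 such windows for the 8 genes. Among the remaining ones only the first MSI2 window held a match, 1 at -178, so the window of KIT, which fell in J.gamma1, held none. Whether matches go with the changes was not tested. Over 35116 windows of the same length, 45.6% held GATA on either strand. The E-box CANNTG, found in 61.8% of them, had no match for HHEX and 1 match each in the GFI1 and BMI1 windows shown. The ETS core GGAA or TTCC, found in 92.7%, had 2 matches for HHEX, 1 for GFI1 and 2 for BMI1 in the windows shown. The GFI1 windows not shown held 4 each, and the BMI1 window not shown held 1. These are matches of letters in a short window, and no binding was measured in these data.

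The lines differed in which of the 8 genes they used. In the control libraries HHEX and CD44 were high in 6T-CEM and low or near 0 in J.gamma1, while KIT and MEIS1 were read almost only in J.gamma1. MSI2 and GFI1 stood at near levels in both. Of the 8 genes, 3 were called higher and 2 lower in J.gamma1 sh-NC than in 6T-CEM sh-NC. A gene is called here where its p, adjusted over all genes tested by the method of Benjamini and Hochberg in edgeR's quasi-likelihood test, was under 0.05. In this contrast 34.6% of all 18552 genes tested were called higher and 31.1% lower.

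Per exon length the order of the genes was unlike in the 2 lines. In 6T-CEM sh-NC the mean level was 32.6 CPM per kilobase for HHEX, 25.4 for BMI1, 22.3 for CD44, 11.6 for GFI1 and 9.66 for MSI2, against 0.076 for CD34, 0.0034 for KIT and 0 for MEIS1. By this measure HHEX stood first of the 8 in that line, at the 91.3rd percentile of genes tested in the fit to all libraries. The rank rests on the division by merged exon length. In CPM, CD44 (223), MSI2 (215) and BMI1 (112) stood above HHEX (82.3) in 6T-CEM sh-NC. In J.gamma1 sh-NC BMI1 led with 38.0 CPM per kilobase, at the 93.8th percentile, followed by GFI1 with 11.6 and MSI2 with 10.4. HHEX stood at 1.58, KIT at 0.86, MEIS1 at 0.60, CD34 at 0.039 and CD44 at 0.022 CPM per kilobase. Under sh-LDB1 the 6T-CEM level of HHEX was 10.6 CPM per kilobase, under those of BMI1 (24.2) and CD44 (20.4).

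**Figure D1:**
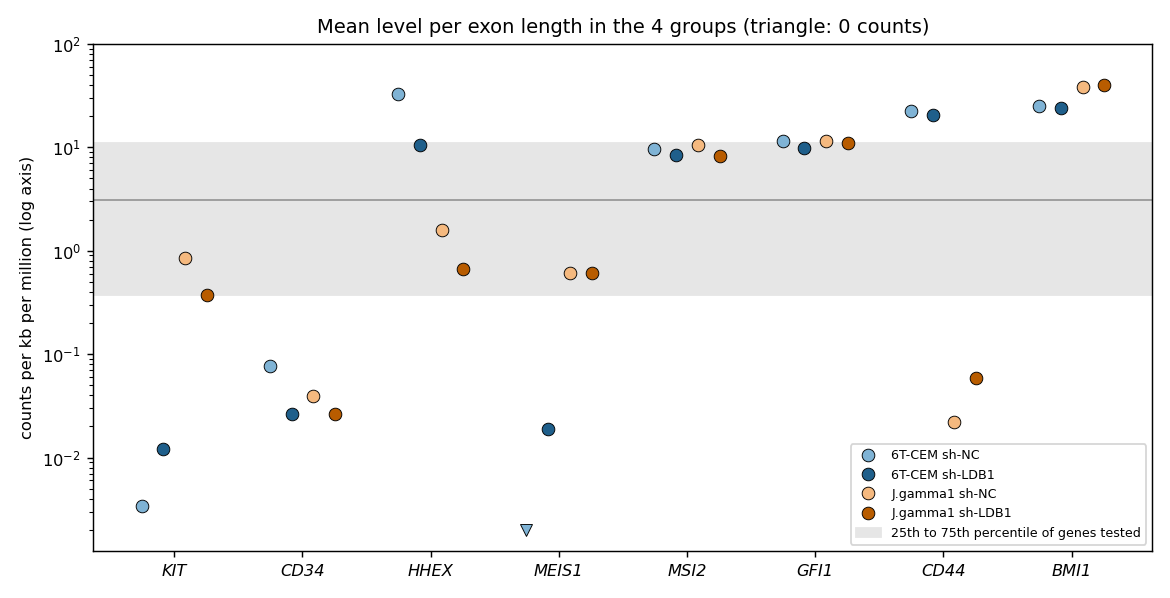
Mean level of each gene in CPM per kilobase of merged exon (log axis), for the 4 groups of 2 libraries. The grey band and line are the quartiles and the median of genes tested, and the triangle marks MEIS1 with 0 counts in 6T-CEM sh-NC. BMI1 lies above the band in all groups, GFI1 and MSI2 near its upper edge, and CD34 low in all. HHEX, CD44, KIT and MEIS1 lie far apart between the lines.

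With LDB1 knockdown, none of the 8 genes was called higher in the fit to either line, by edgeR or by DESeq2. At an unadjusted p under 0.05 in edgeR, 1 was higher, CD44 in J.gamma1. In 6T-CEM 6 of them passed the filter on low counts, and 3 were called lower: HHEX, MSI2 and GFI1. Of the 16059 genes tested in that line, 16.2% were called lower and 15.1% higher. In J.gamma1 7 passed the filter and 3 were called lower: KIT, HHEX and MSI2. There 26.5% of 17215 genes tested were called lower and 25% higher. With a log2 fold change beyond 1 asked for as well, HHEX remained in 6T-CEM, where 2.39% of genes met that rule downward and 2.74% upward. HHEX and KIT met it in J.gamma1, where 7.19% of genes did downward and 6.67% upward. The median log2 fold change was -0.20 over the 6 genes tested in 6T-CEM and -0.057 over the 7 tested in J.gamma1, beside 0.0027 and -0.00025 over all genes tested. In bulk RNA, fewer cells that express a gene cannot be told apart from less of its RNA in each cell.

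**Figure D2:**
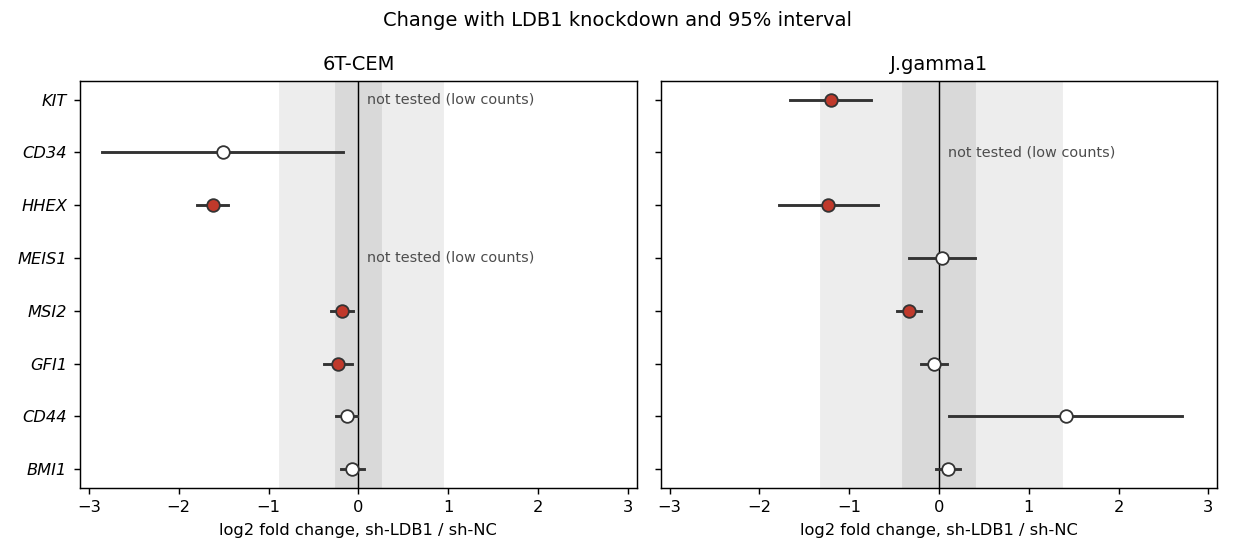
Log2 fold change of each gene between sh-LDB1 and sh-NC, with its 95% interval, in 6T-CEM (left) and J.gamma1 (right). Filled points were called; the bands hold the middle 50% (dark) and 90% (light) of all genes tested. HHEX lies left of the light band in 6T-CEM, at -1.62, and KIT and HHEX lie at -1.21 and -1.23 in J.gamma1.

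HHEX, a homeodomain repressor needed early in lymphoid and endothelial development, fell in both lines. It lies on chromosome 10 (GRCh38, 92689955 to 92695647, plus strand) with 2522 exon bases, and no other annotated gene overlaps it. Its level in 6T-CEM was 84.2 and 80.4 CPM under sh-NC, from 2189 and 2166 counts, and 28.2 and 25.1 CPM under sh-LDB1, from 823 and 718 counts. Both knockdown libraries lay far under both controls. Groups of 2 libraries often do not overlap even without a change, so overlap is given here and below as a description only. The log2 fold change was -1.62 ± 0.081 (SE; 95% interval -1.80 to -1.45, adjusted p = 3.85e-09), or 32.5% of control, and 1.12% of genes tested had a lower value. In J.gamma1 its level was 4.16 and 3.80 CPM against 1.61 and 1.76 CPM, from 132, 120, 45 and 52 counts. Here too the groups did not overlap, on a level that was 4.84% of that in 6T-CEM in the controls (log2 difference -4.37 ± 0.11 SE, adjusted p = 1.28e-11). The change in J.gamma1 was -1.23 ± 0.25 (SE; 95% interval -1.78 to -0.68, adjusted p = 0.00169), or 42.6% of control. The 2 changes differed by 0.39 (95% interval 0.019 to 0.76), which did not pass the test across genes (adjusted p = 0.122). All 4 groups kept their order without overlap, from 6T-CEM sh-NC down to J.gamma1 sh-LDB1.

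MEIS1, a homeodomain cofactor of HOXA proteins, was nearly absent from one line and steady in the other. The gene is on chromosome 2 (66433452 to 66573869, plus strand) with 10942 exon bases. No count was found in either 6T-CEM sh-NC library, and 7 and 5 were found in the sh-LDB1 libraries, so the gene was not tested there. A count of 0 allows up to 3 counts in a library. Against that floor the 7 and 5 counts gave a 6T-CEM level 1.83-fold higher under sh-LDB1. Their own counting error is left out of this value, so no rise of MEIS1 is read from it. Other values given as at least a fold are built in the same way. The counting intervals given here cover counting error only. In J.gamma1 its level was 6.71 and 6.50 CPM under sh-NC and 6.89 and 6.55 CPM under sh-LDB1, and the groups overlapped. The log2 fold change was 0.031 (95% interval -0.33 to 0.40, adjusted p = 0.892). In the controls MEIS1 was at least 58.2-fold higher in J.gamma1 than in 6T-CEM set to its floor. The edgeR fit to all 8 libraries gave a log2 difference of 10.6 (adjusted p = 2.35e-08), a size that depends on the prior count. MEIS1 passed the filter of that fit through J.gamma1. Whether its change differs between the lines cannot be read from these data, since all its 6T-CEM counts together are 12. MEIS1 shares 1437 exon bases with MEIS1-AS2 and 19 with MEIS1-AS3, both on the other strand, and no strand setting is stated for the counting, so reads of these genes cannot be told apart there.

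GFI1, the zinc-finger repressor that restrains stem cell cycling and is used again in T-cell development, changed by little. Its place is chromosome 1 (92473043 to 92486925, minus strand) with 5642 exon bases. In 6T-CEM its level was 67.3 and 63.5 CPM under sh-NC and 55.0 and 56.4 CPM under sh-LDB1, without overlap. The log2 fold change of -0.23 ± 0.072 (SE; 95% interval -0.38 to -0.072) was called (adjusted p = 0.0269) and left 85.5% of control. The call was lost without any 1 of the 4 libraries (adjusted p = 0.0599 to 0.182) and in DESeq2 (-0.21, adjusted p = 0.116). In J.gamma1 its level was 66.7 and 64.7 CPM against 64.7 and 61.0 CPM, and the log2 fold change was -0.057 (95% interval -0.20 to 0.088, adjusted p = 0.5). The control libraries of the lines also overlapped, with a difference of 0.0074 (95% interval -0.13 to 0.15, adjusted p = 0.927). The 4 group means of GFI1 ran from 55.7 to 65.7 CPM, and the test of a different change between lines was not passed (0.17, adjusted p = 0.21).

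KIT, the stem cell factor receptor tyrosine kinase, fell in J.gamma1, the line that expressed it. It lies on chromosome 4 (54657267 to 54740783, plus strand) with 11327 exon bases. Its J.gamma1 level was 10.7 and 8.78 CPM under sh-NC, from 339 and 277 counts, and 3.46 and 4.92 CPM under sh-LDB1, from 97 and 145 counts. The spread within each group was wide for this gene, but the groups did not overlap. On the log2 scale the change was -1.21 ± 0.21 (SE; 95% interval -1.66 to -0.75, adjusted p = 0.000583), or 43.3% of control, with 6.08% of genes tested lower. In 6T-CEM there were 2 and 0 counts under sh-NC and 6 and 2 under sh-LDB1, too few to test. The ratio of the latter, 3.67 with a counting interval from 0.73 to 35.4, gives no direction. Between the control groups the edgeR fit put KIT 231-fold higher in J.gamma1 (adjusted p = 1.05e-07). By counts alone the ratio was 258 (counting interval 71.0 to 2132), from 616 counts against 2. Both of the latter lay in sh-NC replicate 1: without replicate 2 the ratio was 126 (counting interval 34.9 to 1046), and without replicate 1 it was at least 87.4. A different change between lines was not called (adjusted p = 0.0553). KIT passed the filter of that fit through J.gamma1, and with so few 6T-CEM counts nothing is read from this test.

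CD34, the antigen used to isolate stem and progenitor cells, was read in every library but at low counts throughout. Its locus is chromosome 1 (207880972 to 207911402, minus strand) with 9219 exon bases. In 6T-CEM it had 23 and 14 counts under sh-NC and 5 and 9 under sh-LDB1, or 0.88, 0.52, 0.17 and 0.31 CPM. The groups did not overlap, yet the log2 fold change of -1.51 had a wide 95% interval from -2.85 to -0.17 and was not called (adjusted p = 0.0827). In J.gamma1 it had 13 and 10 counts under sh-NC and 6 and 8 under sh-LDB1, under the filter, and was not tested. The sh-LDB1 libraries of the lines overlapped, and the difference between control groups was not called (-0.94, 95% interval -2.26 to 0.38, adjusted p = 0.193). A change of CD34 could not be shown at this depth.

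CD44, the hyaluronan receptor, was abundant in 6T-CEM and near 0 in J.gamma1. The gene is on chromosome 11 (35138882 to 35232402, plus strand) with 9992 exon bases, of which 84 are shared with CD44-AS1 and 70 with CD44-DT on the other strand. In 6T-CEM its level was 226 and 221 CPM under sh-NC and 209 and 198 CPM under sh-LDB1. These groups did not overlap, but the log2 fold change of -0.13 (95% interval -0.24 to -0.010) was not called (adjusted p = 0.0933). J.gamma1 had 7 and 7 counts under sh-NC and 17 and 17 under sh-LDB1, or 0.22 and 0.22 CPM against 0.61 and 0.58 CPM. The log2 fold change there was 1.41 ± 0.59 (SE; 95% interval 0.11 to 2.71) and was not called by the fit to that line alone (adjusted p = 0.0659), though it was in the fit to all 8 libraries (1.40, adjusted p = 0.004). CD44 passed the filter of that fit through its 6T-CEM libraries. By counting alone, 34 against 14 counts give a 2.68-fold ratio with an interval from 1.40 to 5.40. The J.gamma1 control level was 0.101% of that in 6T-CEM in the same fit (log2 difference -9.95 ± 0.10 SE, adjusted p = 5.14e-14). That SE is too small for a level that rests on 14 counts. Neither the SE nor this p measures the uncertainty of the size. For the difference of the change between lines, 2 of the 8 genes met the threshold, CD44 upward and MEIS1 downward in J.gamma1, beside 12% of all genes tested upward and 12.4% downward. Both met it on near-floor counts in the line that hardly expresses them, so no difference between the lines is read from these calls.

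BMI1, the PRC1 subunit that represses the CDKN2A locus in stem cells, was abundant and was called in neither line. It lies on chromosome 10 (22321099 to 22331484, plus strand) with 4395 exon bases, of which 1000 are shared with the read-through gene COMMD3-BMI1. In 6T-CEM its level was 113 and 110 CPM under sh-NC and 108 and 104 CPM under sh-LDB1, with a log2 fold change of -0.067 (95% interval -0.20 to 0.064, adjusted p = 0.449). In J.gamma1 it was 176 and 158 CPM against 182 and 174 CPM, and the groups overlapped. Its log2 fold change was 0.097 (95% interval -0.037 to 0.23, adjusted p = 0.207), and without sh-NC replicate 1 it was 0.18 and was called (adjusted p = 0.039). Between the control groups BMI1 was 1.50-fold higher in J.gamma1 (log2 difference 0.58 ± 0.059 SE, adjusted p = 2.65e-06). Reads given to the read-through gene were at most 22 in a library, and adding them to BMI1 changed no call of BMI1.

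MSI2, the Musashi protein that holds back the translation of NUMB and other mRNAs, fell slightly in both lines. Its locus is chromosome 17 (57255851 to 57684689, plus strand) with 22248 exon bases. In J.gamma1 its level was 239 and 225 CPM under sh-NC and 192 and 175 CPM under sh-LDB1, from 7580, 7115, 5374 and 5146 counts. On the log2 scale the change was -0.33 ± 0.058 (SE; 95% interval -0.46 to -0.21, adjusted p = 0.000677), or 79.3% of control. Among the genes tested 28.1% had a lower value, so the change was small beside many others. In 6T-CEM its level was 213 and 217 CPM against 194 and 184 CPM, and the change was -0.18 ± 0.055 (SE; 95% interval -0.30 to -0.065, adjusted p = 0.0202), or 88.2% of control. The 6T-CEM call was lost without sh-NC replicate 1 (adjusted p = 0.0759), without sh-NC replicate 2 (adjusted p = 0.125) and without sh-LDB1 replicate 2 (adjusted p = 0.12). The control groups differed by 0.11 (95% interval -0.0098 to 0.23, adjusted p = 0.0968), and the changes by -0.16 (adjusted p = 0.185).

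**Figure D3:**
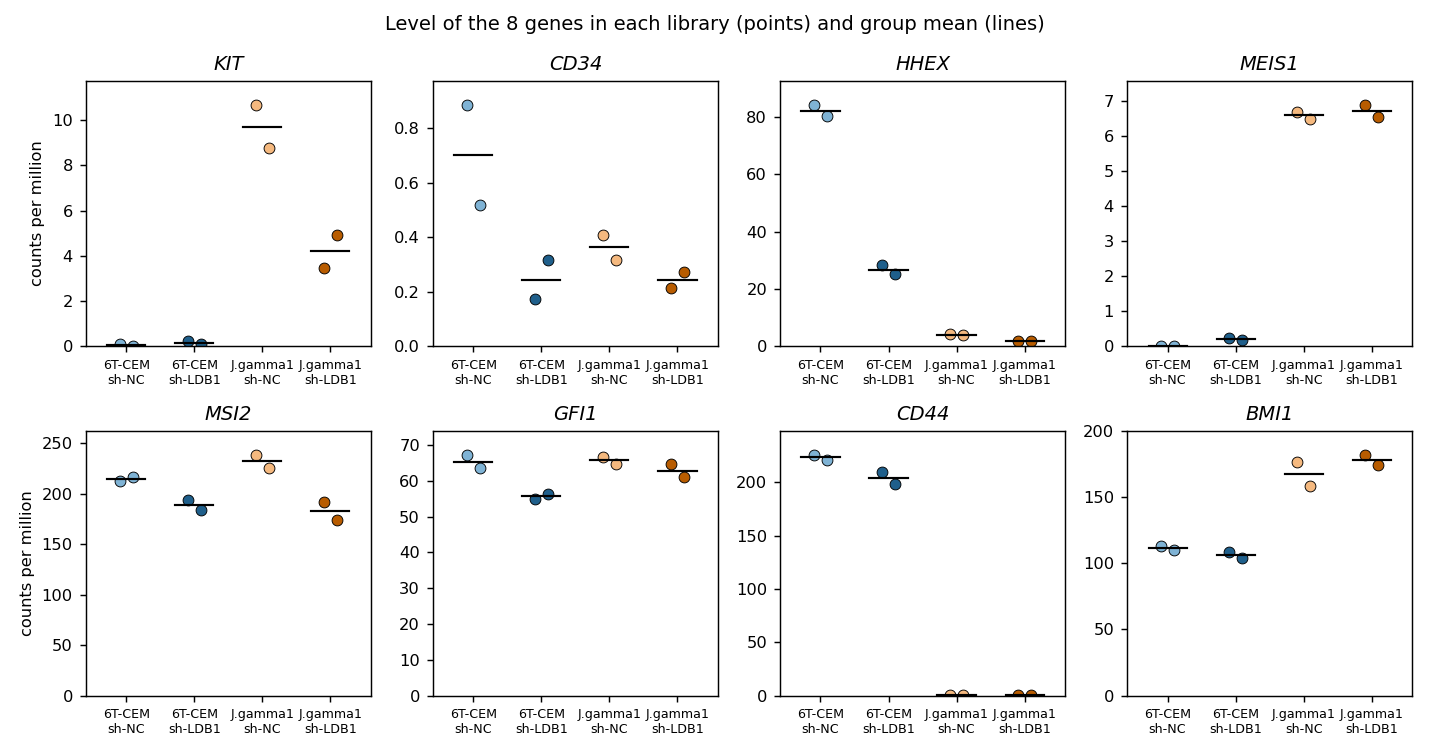
Level of each gene in CPM (linear axes from 0, a scale for each gene) in the 8 libraries; points are libraries and lines the means of 2. The HHEX mean is 82.3 against 26.7 in 6T-CEM, with 3.98 against 1.69 in J.gamma1, and the KIT mean in J.gamma1 is 9.73 against 4.19, while GFI1, BMI1 and the J.gamma1 level of MEIS1 lie close together.

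The genes whose pattern over the 8 libraries was nearest to each of these, by Euclidean distance between centred log2 CPM among 14738 genes, are named as a description. For HHEX they were STAT5A (distance 0.73, r = 0.993), which shares annotated exon bases with its paralog STAT5B, and EHD2 (0.76, r = 0.996). KIT lay nearest to GPSM1 (0.98, r = 0.993) and AMIGO2 (1.09, r = 0.992), MEIS1 to RHPN2 (0.81, r = 0.996) and PTPRJ (1.00, r = 0.995), and CD44 to MDFIC (1.07, r = 0.997) and H2AJ (1.19, r = 0.996). All 4 are genes with a large gap between the cell lines. MSI2 was nearest to FAM217B (0.11) and CASP8AP2 (0.14), GFI1 to ZNF668 (0.098) and TRAF7 (0.12), and BMI1 to PPP2R1B (0.15) and GOLGA7 (0.15). The 8 points of each r share libraries and cell lines, and no p is given.

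Genes that work with the 8 genes were looked at by list. The counts that follow stand beside 15.1% called higher and 16.2% lower among all genes tested in 6T-CEM, and 25% higher and 26.5% lower in J.gamma1, and nothing particular to a list is read from them. Among 13 other stem-cell transcription factors, 7 of the 10 tested in 6T-CEM were called lower and 0 higher, with a median log2 fold change of -0.95. In J.gamma1 6 of 9 were called lower and 1 higher, with a median of -1.23. More of the tested list fell than not, in each line. LYL1, a basic helix-loop-helix partner of LMO2, fell by 1.91 in 6T-CEM and 2.35 in J.gamma1 on the log2 scale (adjusted p = 3.98e-09 and 9.01e-06). ERG, an ETS factor of stem cells, fell by 1.37 and 2.07 (adjusted p = 3.64e-09 and 0.000106). MYCN fell by 1.21 and 4.41 (adjusted p = 0.000127 and 3.35e-08). NFE2, a factor of megakaryocytes and erythroid cells, fell by 2.27 in 6T-CEM (adjusted p = 6.31e-08) and from 179 and 154 counts to 0 in J.gamma1, at least 50.3-fold lower. This list was chosen with earlier results of these libraries known, so its count is not independent evidence of its direction.

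Of 13 other stem and progenitor surface proteins, 1 of 5 tested was called lower in 6T-CEM and 0 higher, while in J.gamma1 4 of 10 were called lower and 3 higher (medians -0.023 and -0.16). ITGA6, the integrin alpha 6 chain, fell in both lines, by 1.43 in 6T-CEM (adjusted p = 3.98e-09) and 0.58 in J.gamma1 (adjusted p = 0.000545). THY1, also known as CD90, rose by 1.25 in J.gamma1 (adjusted p = 4.02e-08) and was too low to test in 6T-CEM. CD38 and CD164 rose in J.gamma1 by 0.58 and 0.26 (adjusted p = 2.87e-05 and 0.00114) and were not called in 6T-CEM (-0.023 and 0.10).

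Around KIT, 5 of the 11 ligand and signalling genes tested were called higher in each line, and 1 in 6T-CEM and 2 in J.gamma1 lower (medians 0.093 and 0.064). GAB2, a docking adaptor, fell by 0.39 in 6T-CEM and by 2.53 in J.gamma1 (adjusted p = 0.012 and 5.04e-08). FLT3LG, the ligand of the related receptor FLT3, rose by 1.15 and 1.03 (adjusted p = 0.000132 in each), and the adaptor SHC1 by 0.44 and 0.66 (adjusted p = 0.000209 and 4.97e-05). CBL, a ubiquitin ligase of activated receptors, went opposite ways, 0.39 in 6T-CEM and -0.46 in J.gamma1 (adjusted p = 0.000196 and 0.000801).

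Of 11 MEIS1 relatives and partners, none of the 5 tested was called in 6T-CEM by edgeR (median 0.12), and 1, PBX2, had an unadjusted p under 0.05 there (log2 fold change 0.28). In J.gamma1, where MEIS1 itself did not pass the test, 5 of 9 were called lower and 1 higher (median -0.48). PBX3, of the PBX family that pairs with MEIS1 on DNA, fell by 0.58 (adjusted p = 0.000188) and HOXA7 by 0.50 (adjusted p = 0.00245). PBX2 rose by 0.52 (adjusted p = 0.0045).

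All 17 genes of the list for PRC1, the complex of BMI1, were tested in both lines. In 6T-CEM 5 were called higher and 4 lower (median 0.17), and in J.gamma1 6 higher and 3 lower (median 0.030). CBX6, a chromobox subunit, rose by 0.44 and 1.48 (adjusted p = 0.000114 and 1.09e-08). PHC1, a polyhomeotic subunit, fell by 0.44 and 0.89 (adjusted p = 0.000548 and 4.44e-06). Among the paralogs of BMI1, PCGF6 fell by 0.72 and 0.65 (adjusted p = 0.000187 and 0.00235) and PCGF1 rose by 0.66 and 0.43 (adjusted p = 0.00521 and 0.025). BMI1 itself was not called, and the list's shares of calls stood beside 25% higher and 26.5% lower over all genes in J.gamma1.

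For MSI2, 1 of 6 relatives and partners tested was called lower in 6T-CEM and 0 higher, and in J.gamma1 3 were called higher and 1 lower (medians -0.091 and 0.18). NUMBL, the paralog of its target NUMB, rose by 0.74 in J.gamma1 (adjusted p = 0.000527), as did SYNCRIP, an RNA-binding partner, by 0.60 (adjusted p = 1.79e-06). IGF2BP2 fell by 0.95 in J.gamma1 (adjusted p = 0.0216). IGF2BP3 fell by 0.29 in 6T-CEM (adjusted p = 0.0397) and rose by 0.35 in J.gamma1 (adjusted p = 0.000791).

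For GFI1, 2 of 9 corepressor genes and relatives were called higher and 3 lower in 6T-CEM, and 4 of 8 higher and 2 lower in J.gamma1 (medians -0.016 and 0.26). KDM1A, the histone demethylase that GFI1 recruits, fell by 0.44 and 0.32 (adjusted p = 1.46e-05 and 0.000121), and HDAC1 rose by 0.25 and 0.46 (adjusted p = 0.003 and 1.25e-05). RCOR3 rose by 0.45 (adjusted p = 0.000427) and AJUBA fell by 0.43 (adjusted p = 0.0113) in J.gamma1, and neither was called in 6T-CEM.

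For CD44, 4 of 10 ligand, anchor and hyaluronan genes tested were called higher and 0 lower in 6T-CEM, and 2 of 9 higher and 2 lower in J.gamma1 (medians 0.26 and 0.069). SRGN, the proteoglycan serglycin, rose by 0.86 and 1.15 (adjusted p = 7.83e-06 and 9.68e-06). MMP9, a protease that docks on CD44, rose by 2.19 in 6T-CEM (adjusted p = 0.00172), from 8 and 12 counts to 58 and 42. VCAN and HAS3 fell in J.gamma1 by 1.48 and 0.75 (adjusted p = 0.000557 and 0.0128).

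**Figure D4:**
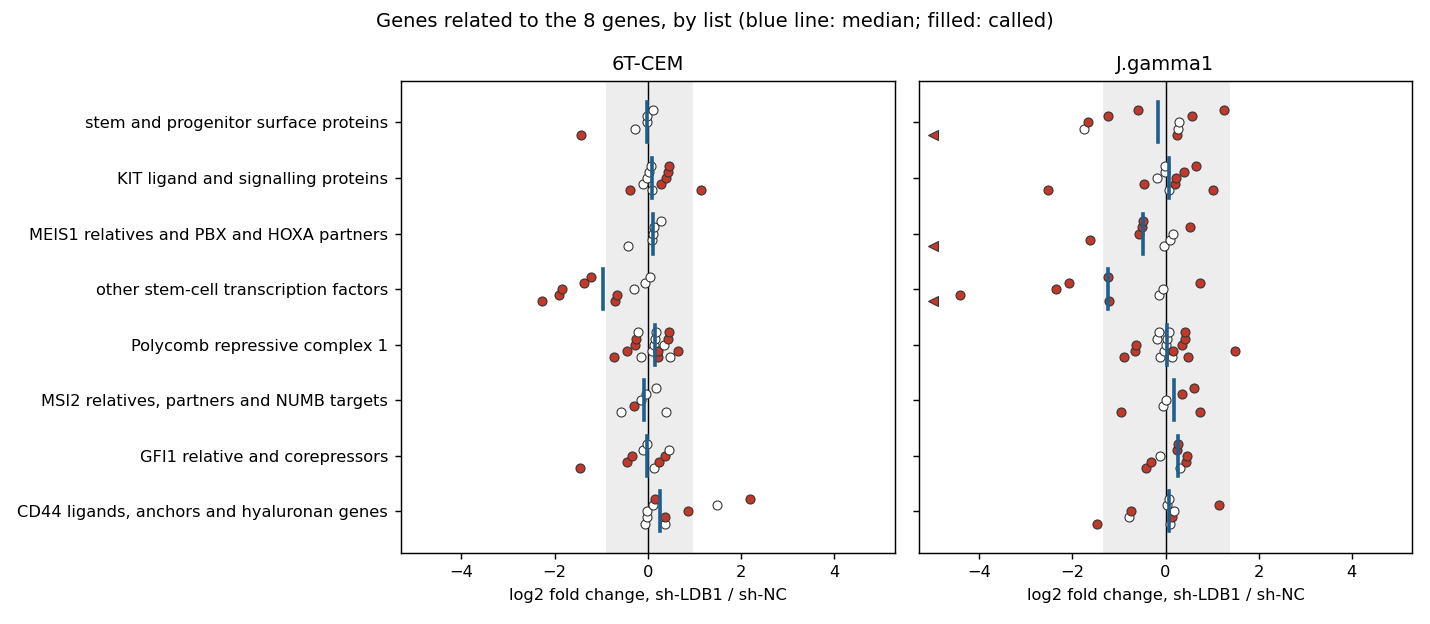
Log2 fold change with LDB1 knockdown of the genes tested in each of 8 lists, in 6T-CEM (left) and J.gamma1 (right). Filled points were called, blue lines are list medians, the grey band holds the middle 90% of all genes, and triangles at the edge stand for fitted values below -5, which depend on the prior count. The list of other stem-cell transcription factors has its medians at -0.95 and -1.23, and the other lists have theirs between -0.48 and 0.26.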

How the data were processed

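Per the labels and the study's methods, the authors made TruSeq libraries from total RNA, sequenced them as paired-end reads, used HISAT2 2.2.0 for alignment (build hg38) and StringTie for quantification. The deposited values are whole-number counts per gene, in 1 table per cell line with 4 libraries each. The annotation release, the strand setting and the treatment of reads that match several genes are not given in the sources used here, so genes with shared exon bases are marked. Symbols, coordinates and merged exon lengths came from GENCODE 44: 56105 of 64252 identifiers matched a symbol and 8147 did not. The latter stayed in the tests. Promoter windows came from RefSeq (GRCh38.p14), and all 8 genes had an entry.

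Counts were tested with edgeR 4.0.16 (R 4.3.3, limma 3.58.1): TMM normalization, filterByExpr with a minimum count of 10, a robust quasi-likelihood fit with group as the only term and the Benjamini-Hochberg adjustment over all genes tested. Each line was fitted by itself for sh-LDB1 against sh-NC. One fit to all 8 libraries gave the control groups' difference and the difference of the knockdown change. Calls needed an adjusted p under 0.05. CPM used TMM factors over all 8 libraries and CPM per kilobase the merged exon length. Low counts mean under 50 on average in both groups of a line; a group whose libraries each held at most 3 counts was at the floor. Replicates correlated at r = 0.998 in each group and differed by more than sampling noise (chi-square per degree of freedom 7.68 to 13.0), so none was a copy of another; the check does not tell separate cultures from separate preparations. Depth was 26160492 to 30604977 counts a library. The fits were tested on simulated data.

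The 8 genes and the lists were chosen with earlier results of these data known. Named genes were the 8 genes, LDB1, up to 4 called genes a list with the largest absolute log2 fold change in either line and 50 counts or more on average in the higher group, and the 2 nearest genes by pattern for each gene averaging 50 counts or more in its highest group. MMP9 and NFE2 are among them by that rule. Alternatives were other normalizations (RLE and upper quartile), no filter or at least 50 counts in 2 libraries, DESeq2 1.42.0, a replicate block, 1 fit to all 8 libraries, leaving out each library in turn, and BMI1 summed with COMMD3-BMI1, the last chosen after seeing the annotation. No protein sequence is shown, and 1 gene that the rule named is not reported here.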

Additional observations from a re-analysis of the deposited data

Results flagged for a closer look

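MEIS1 and CD44 met the threshold for a different change with LDB1 knockdown between the lines in edgeR's fit to all 8 libraries, each having passed the filter on low counts through the line where it is high. For CD44 the change in J.gamma1 lay 1.53 above that in 6T-CEM on the log2 scale (SE 0.28, adjusted p = 0.00342), from 7 and 7 against 17 and 17 counts in J.gamma1. That SE is under the counting error of the J.gamma1 ratio alone, 0.46; in DESeq2 the value was 1.51 with an SE of 0.47 (adjusted p = 0.00728). The fit to J.gamma1 alone called no change of CD44 (adjusted p = 0.0659). For MEIS1 the fitted difference was -5.59 (95% interval -8.01 to -3.17, adjusted p = 0.00353), a size that depends on the prior count. It came from 0 counts against 7 and 5 in 6T-CEM, where the gene was not tested, and a J.gamma1 change of 0.031. With 6T-CEM sh-NC set to its floor the difference was -0.84, on which no test was run. Counts this low give no basis for a difference of MEIS1 between the lines, and its antisense neighbour MEIS1-AS2 could hold some of them, which was not tested.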

How the results depend on the processing

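Of 390 fold changes of the 8 genes recomputed under alternatives, 369 kept their direction and side of the threshold, 9 lost and 7 gained a call, and 5 turned sign. HHEX kept its call in both lines, and KIT and MSI2 theirs in J.gamma1, under all 12 alternatives run for each. The number of genes called in 6T-CEM beyond a log2 fold change of 1, 824 in the edgeR fit used here, was 541 with at least 50 counts in 2 libraries and 510 in DESeq2. With 1 library left out, its group's other library being assumed to vary like the other group, the 8 genes gave 1 to 2 calls in 6T-CEM (3 with all libraries), 3 to 4 in J.gamma1, 2 to 3 for the difference between lines and 5 in each fit for the control groups. All genes gave 3234 to 3875 calls in 6T-CEM (5023 with all), 7438 to 8050 in J.gamma1 (8870), 3574 to 4028 for the difference between lines (4524) and 10972 to 12382 for the control groups; beyond a log2 fold change of 1 there were 690 to 721 in 6T-CEM and 2062 to 2390 in J.gamma1. Values near 0 turned sign: MEIS1 in J.gamma1 without sh-LDB1 replicate 1 (-0.0042; 0.073 without replicate 2), and GFI1 between control groups without 6T-CEM sh-NC replicate 2 (-0.041; 0.040 without replicate 1), 6T-CEM sh-LDB1 replicate 1 (-0.0016) or 2 (-0.00080), or J.gamma1 sh-NC replicate 1 (-0.011). Upper-quartile factors also ended the GFI1 call in 6T-CEM (-0.20, adjusted p = 0.0514) and made one for MSI2 between control groups (0.15, adjusted p = 0.0317), as DESeq2 did (0.15, adjusted p = 0.0246). The KIT difference between lines was called with the stricter filter (adjusted p = 0.0434). With 1 library left out, its fitted log2 size ran from -6.28 to -2.02, and its call depended on which library was left out. Why was not tested. KIT had at most 6 counts in a 6T-CEM library and passed the filter through J.gamma1. No difference of KIT between the lines is therefore read from these fits. Deviations of libraries with equal replicate numbers correlated at -0.028 for 6T-CEM and at 0.022 for J.gamma1, which shows no pairing gene by gene. In each group, though, replicate 2 had a larger mitochondrial share than replicate 1. It was 4.45% against 2.98% in 6T-CEM sh-NC and 4.59% against 3.85% in J.gamma1 sh-NC. Whether equal numbers mark a shared preparation was not tested. The replicate block gave 5070 and 8785 called genes, 3 and 3 of the 8 genes among them. Depth limits CD34 in both lines, KIT and MEIS1 in 6T-CEM and CD44 in J.gamma1.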
